A study of Mus musculus with 9 samples.

Results

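The genes described here encode the proteins of the mitochondrial ribosome. They were taken as every protein-coding gene in the expression table whose symbol begins with Mrpl or Mrps and a digit, and 78 of 54532 genes in the table met that rule. A further 5 genes with such symbols are annotated as pseudogenes and were not counted. Of these, 51 encode proteins of the large subunit, 26 encode proteins of the small subunit, and Mrps36, despite its symbol, is now known as a subunit of the 2-oxoglutarate dehydrogenase complex. Liver messenger RNA was sequenced from male, wild-type C57BL/6J mice in 3 groups of 3 libraries. The first group was fed CDAA-HFD, a choline-deficient, amino acid-defined diet rich in fat that is used to bring on steatohepatitis, and was given the compound 326E at 30 mg/kg for 6 weeks. The second group was fed CDAA-HFD and given vehicle, and the third was fed normal chow and given vehicle. The study asked through which genes 326E might act on diet-induced liver disease, and the series title names ATP citrate lyase and the receptor PPARα in connection with 326E. The labels do not state that each library comes from a separate animal, so the p-values measure the spread between these libraries, which may be partly technical.

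The mitochondrial ribosome translates the few messenger RNAs that the mitochondrial genome encodes, which make core subunits of the respiratory chain and of ATP synthase. Its proteins are encoded in the nucleus, made in the cytosol and imported, and are assembled on ribosomal RNAs that mitochondrial DNA supplies. Some of the proteins have a counterpart in bacterial ribosomes and others were added in the mitochondrial lineage. Liver is rich in mitochondria, and its cells depend on them for fatty acid oxidation, ketone body formation and the urea cycle.

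Values are the FPKM that the authors deposited, that is, fragments scaled to gene length and library size, and levels of different genes are compared on that per-length scale. A difference is a difference of log2(FPKM+1) from limma, with its standard error after ±, and it understates the change of low genes. Calls were made at an adjusted p under 0.05, over all 13737 genes tested in a comparison. The libraries held 13275888 to 17058316 reads assigned to genes. The mitochondrial ribosomal protein genes took 0.182% to 0.209% of them in 326E libraries, 0.161% to 0.170% in vehicle libraries and 0.163% to 0.180% in chow libraries. Vehicle replicate 2 stood apart from vehicle replicates 1 and 3 in Myc, at 7.04 FPKM against 33.2 and 49.9 FPKM. Counts without it, and medians with it as the lone vehicle library, are therefore given beside the results.

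Of the 78 genes, 77 reached 0.5 FPKM in 3 or more libraries and were tested. Their mean levels ran from 0.937 to 29.9 FPKM, with a median of 9.05 FPKM, and rested on a mean of 94.6 to 901 reads per library. The highest mean levels belonged to Mrpl52 at 29.9 FPKM, and to Mrpl34 and Mrps24 at 28.3 FPKM each. The lowest belonged to Mrps25 at 0.937 FPKM, Mrpl48 at 1.85 FPKM and Mrpl33 at 1.88 FPKM. The deposited length of Mrpl33, 7326 bases, is 15.3 times its longest coding transcript, and 69.8% of the exon bases of Mrps25 lie over exons of Nr2c2 on the other strand, so the per-length levels of both genes depend on the gene model. Mrpl53, a protein of the large subunit, was listed at 0 reads in all 9 libraries, and 3 reads would have given it 0.187 to 0.346 FPKM. In the GENCODE annotation, it shares exon bases with Ccdc142os and Gm42688, 88.0% of its bases on the same strand and 1.9% on the opposite strand. In all, 33 of the 78 genes share some exon bases with another gene, 10 of them over 20% of their bases. The strand setting of the counting is not given in the sources used here.

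The 77 genes lie on 17 chromosomes and have other features in common that were not used to choose them. The start of a gene on the opposite strand lies within 500 bases of the start of 28 of 77 (36.4%), against 2413 of 11805 tested protein-coding genes (20.4%). RefSeq promoters, from 250 bases before to 50 bases after the start on GRCm38.p6, were found by symbol for 69 of the 78 genes and were searched on both strands for 3 motifs. A nuclear respiratory factor 1 motif, GCGC followed by any base and TGCGC, occurred at 13 of the 69 genes (18.8%), against 5.19% of all genes with a promoter in that table and 11.4% of the tested protein-coding genes. An ETS motif, CCGGAAG, of the kind bound by GABP, occurred at 26 genes (37.7%), against 9.93% and 19.8%. A YY1 motif, AANATGGC, occurred at 21 genes (30.4%), against 6.96% and 10.01%. The motifs hold different letters but were counted separately, so a gene can be in more than 1 count. The median difference between 326E and vehicle livers was 0.28 with and 0.20 without the nuclear respiratory factor 1 motif, 0.19 and 0.24 for the ETS motif, and 0.19 and 0.26 for the YY1 motif. Between vehicle and chow livers the medians were -0.57 with and -0.43 without the nuclear respiratory factor 1 motif, -0.45 and -0.47 for the ETS motif, and -0.46 and -0.46 for the YY1 motif. The median difference between 326E and vehicle livers was 0.22 for the 46 tested genes with any of these motifs and 0.23 for the 22 without, and the median difference between vehicle and chow livers was -0.48 with and -0.41 without. A match is a description of the sequence and does not show that a factor binds there. The promoters of 5 genes named in the comparisons, all of which hold a match, are printed below. Each runs from 170 bases before to 30 bases after the start of transcription, 5′ to 3′ on the strand of the gene, with the motif match in capitals. Mrpl10, Mrpl50 and Mrps36, which were called higher with 326E, hold none of the 3 motifs. Mrpl14 (chr17:45686179-45686378, plus strand) and Mrpl44 (chr1:79775848-79776047, plus strand) show the nuclear respiratory factor 1 motif on the antisense strand, Mrpl22 (chr11:58171494-58171693, plus strand) and Mrpl34 (chr8:71464756-71464955, plus strand) the ETS motif, and Mrpl49 (chr19:6057726-6057925, minus strand) the YY1 motif.
Mrpl14: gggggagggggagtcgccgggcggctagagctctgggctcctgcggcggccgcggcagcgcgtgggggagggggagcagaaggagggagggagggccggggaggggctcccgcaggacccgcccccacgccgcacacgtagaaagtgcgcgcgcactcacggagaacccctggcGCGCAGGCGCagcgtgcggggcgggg
Mrpl44: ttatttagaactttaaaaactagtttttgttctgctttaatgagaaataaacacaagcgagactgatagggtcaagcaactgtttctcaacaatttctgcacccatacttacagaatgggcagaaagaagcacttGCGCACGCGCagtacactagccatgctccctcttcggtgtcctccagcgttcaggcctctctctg
Mrpl22: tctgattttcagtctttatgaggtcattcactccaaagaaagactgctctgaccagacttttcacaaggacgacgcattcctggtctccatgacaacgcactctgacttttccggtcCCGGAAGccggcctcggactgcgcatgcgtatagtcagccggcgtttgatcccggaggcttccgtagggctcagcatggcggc
Mrpl34: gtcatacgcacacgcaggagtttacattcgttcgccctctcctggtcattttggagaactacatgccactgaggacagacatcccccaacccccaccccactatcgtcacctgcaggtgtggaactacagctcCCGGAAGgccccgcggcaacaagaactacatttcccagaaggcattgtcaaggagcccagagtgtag
Mrpl49: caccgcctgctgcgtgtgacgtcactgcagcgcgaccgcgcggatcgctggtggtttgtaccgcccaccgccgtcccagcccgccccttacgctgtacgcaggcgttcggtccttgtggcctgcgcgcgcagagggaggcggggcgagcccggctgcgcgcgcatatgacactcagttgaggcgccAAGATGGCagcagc
The nuclear respiratory factor 1 match begins 35 bases before the start of Mrpl44. That of Mrpl14 and the YY1 match of Mrpl49 both lie wholly after the start.

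The comparison of 326E with vehicle, both on CDAA-HFD, asked what the compound changed. Of the 77 mitochondrial ribosomal protein genes, limma called 9 higher with 326E (11.7%, against 4.96% of all tested genes), 68 did not pass, and 0 were lower (against 6.5% of all tested genes; 0 at an unadjusted p under 0.05, and 0 by voom). The fitted difference was positive for 71 of the 77 genes and its median was 0.21, against -0.02 for all tested genes. Without adjustment 29 passed, all 29 higher, and in 30 of 77 every 326E library lay above every vehicle library (39.0%, against 14.8% of all tested genes), while in 0 of 77 every one lay below (against 18.2%). The summed level of the genes was 901, 797 and 862 FPKM in the 326E libraries, against 672, 660 and 761 FPKM in the vehicle libraries, and the groups did not overlap. In the bulk tissue, fewer cells of a type and less RNA per cell cannot be told apart.

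**Figure D1:**
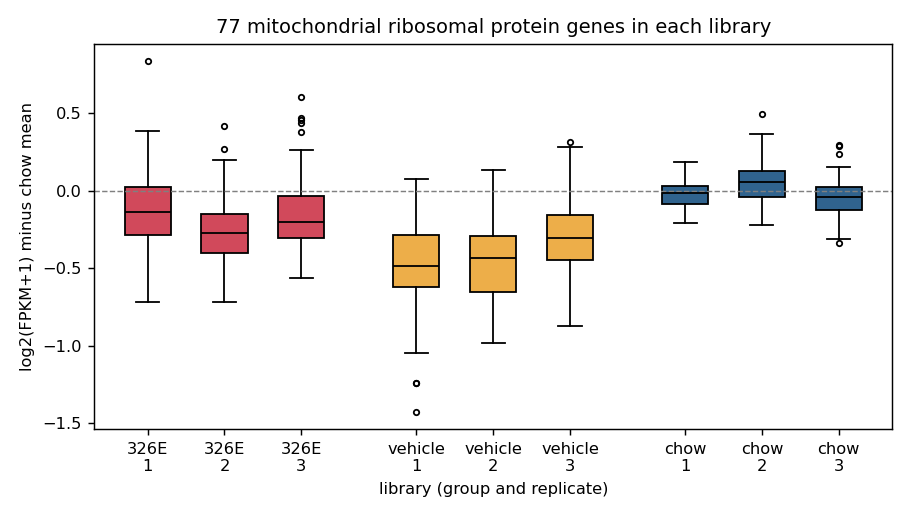
Box plots of the 77 tested genes in each of the 9 libraries, by group and replicate; the vertical axis is log2(FPKM+1) of each gene minus its mean over the chow libraries, boxes are quartiles with the median as a line, and circles are genes beyond the whiskers. The library medians lay between -0.27 and -0.14 in 326E, between -0.48 and -0.30 in vehicle and between -0.04 and 0.06 in chow libraries.

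The called genes of the large subunit include parts of its working core. Mrpl22, whose bacterial counterpart lines the exit tunnel for the growing protein, had 11.1, 8.91 and 10.2 FPKM in 326E livers, against 4.8, 5.62 and 7.28 FPKM in vehicle livers. Each 326E value lay above the vehicle values, a difference of 0.69 ± 0.18 on the log2(FPKM+1) scale (limma, adjusted p = 0.0408). Mrpl34, a short and basic protein with a bacterial counterpart, had 38.1, 28.4 and 32.1 FPKM in 326E livers, against 19.9, 19.5 and 23.7 FPKM in vehicle livers. The groups did not overlap, and the difference was 0.61 ± 0.16 (limma, adjusted p = 0.0380). Mrpl14, which sits on the face that meets the small subunit, had 25.2, 22.7 and 24.3 FPKM in 326E livers, against 15.8, 12.4 and 18.9 FPKM in vehicle livers. Again the groups did not overlap, and the difference was 0.60 ± 0.14 (limma, adjusted p = 0.0285). Mrpl10, which forms the base of the stalk that recruits translation factors, had 20.4, 22.7 and 21.5 FPKM in 326E livers, against 15.1, 16.9 and 17.7 FPKM in vehicle livers. It was higher in 326E livers by 0.36 ± 0.09 without overlap (limma, adjusted p = 0.0341).

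The other called genes of the large subunit belong to its mitochondria-specific proteins. Mrpl49 had the smallest adjusted p of the family in this comparison: 12.6, 13.9 and 13.4 FPKM in 326E livers, against 9.76, 8.66 and 9.74 FPKM in vehicle livers. The groups lay apart, by 0.46 ± 0.08 (limma, adjusted p = 0.0108). Mrpl50 had 19.8, 19.9 and 22.2 FPKM in 326E livers, against 14.3, 14.6 and 14.8 FPKM in vehicle livers. Its vehicle values were close together and all lay below the 326E values, with a difference of 0.47 ± 0.10 (limma, adjusted p = 0.0168). Mrpl43 had 29.5, 24.7 and 26.0 FPKM in 326E livers, against 21.3, 19.8 and 18.9 FPKM in vehicle livers, a difference of 0.40 ± 0.10 without overlap (limma, adjusted p = 0.0394). Of the exon bases of Mrpl43, 33.4% lie over exons of Twnk on the opposite strand, and Twnk, the mitochondrial DNA helicase, was also called higher (0.60 ± 0.13; limma, adjusted p = 0.0229). Without the strand setting, reads of that stretch cannot be assigned to one of them.

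A single small-subunit gene was called. Mrps18b, 1 of 3 mammalian relatives of the bacterial protein S18, had 11.2, 13.9 and 13.6 FPKM in 326E livers, against 8.31, 8.67 and 9.59 FPKM in vehicle livers. The groups did not overlap (0.49 ± 0.13; limma, adjusted p = 0.0463), and 30.5% of its exon bases lie over Gm16279 on the other strand. Of its relatives, Mrps18c differed by 0.51 ± 0.22 (limma, adjusted p = 0.176) and Mrps18a, which has its place in the large subunit, by 0.28 ± 0.10 (limma, adjusted p = 0.108). Mrps36, the dehydrogenase subunit, had 6.53, 5.60 and 6.84 FPKM in 326E livers, against 3.60, 4.60 and 4.28 FPKM in vehicle livers. It was higher in 326E livers by 0.51 ± 0.12 without overlap (limma, adjusted p = 0.0294), on a mean of 103 reads per library. Since Mrps36 is not a ribosomal protein, 8 of the 76 tested genes of the ribosome itself were called.

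**Figure D2:**
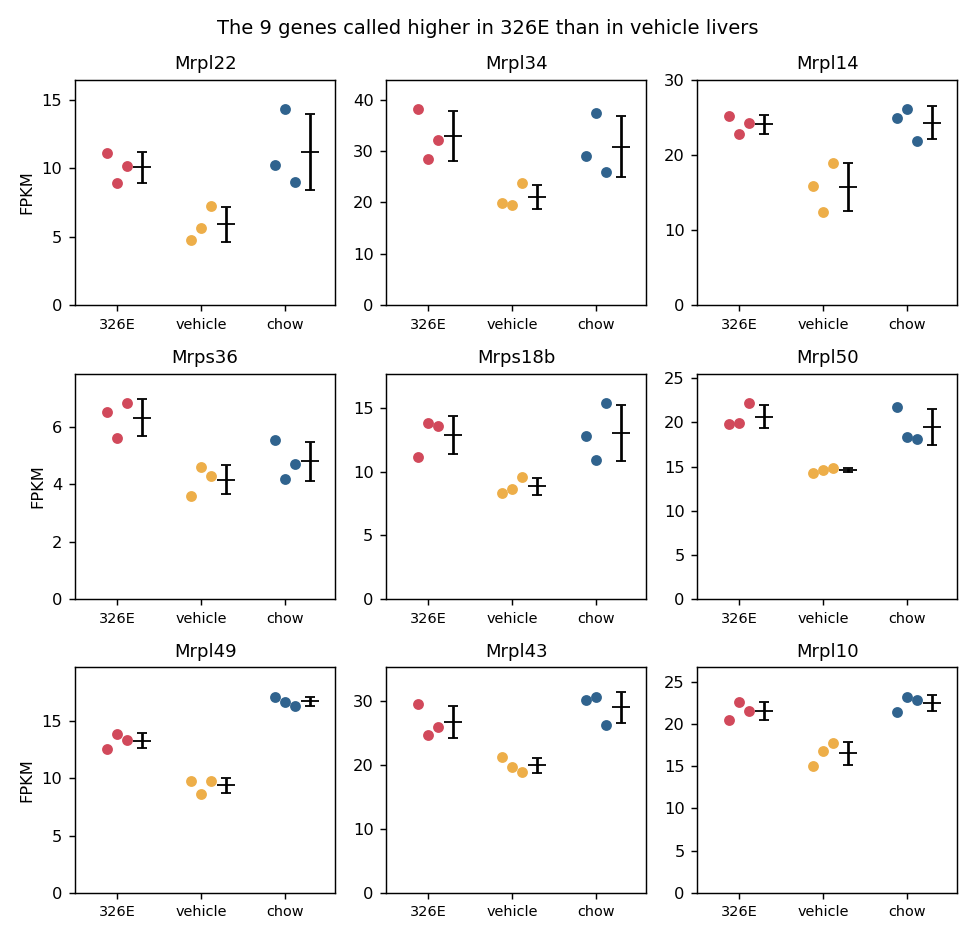
FPKM of the 9 genes called higher in 326E than in vehicle livers, in each of 3 libraries per group (points; 326E, vehicle and chow from left to right), with the mean ± SD beside them. In each panel the 326E points lie above the vehicle points, for Mrpl22 8.91 to 11.1 against 4.8 to 7.28 FPKM.

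The largest fitted difference of the family was not called. Mrps34, a mitochondria-specific protein of the small subunit, had 11.96, 8.12 and 8.45 FPKM in 326E livers, against 3.29, 4.84 and 8.75 FPKM in vehicle livers. Vehicle replicate 3 lay within the 326E range, and the difference of 0.73 ± 0.28 did not pass (limma, adjusted p = 0.129). Of the exon bases of Mrps34, 77.8% are shared with Mapk8ip3 and Nme3, so its count is uncertain. Mrpl54 and Mrpl41, both mitochondria-specific proteins of the large subunit, did not overlap between groups but also missed the threshold, at 0.60 ± 0.20 (limma, adjusted p = 0.0879) and 0.53 ± 0.16 (limma, adjusted p = 0.0630). Mrps12, the counterpart of the bacterial protein at the decoding centre, averaged 17.3 ± 2.95 FPKM in 326E livers and 12.6 ± 1.12 FPKM in vehicle livers (SD, n = 3 each; 0.42 ± 0.13; limma, adjusted p = 0.0639). Mrpl12, a stalk protein also reported to bind the mitochondrial RNA polymerase, averaged 20.3 ± 3.06 FPKM in 326E livers and 16.3 ± 4.47 FPKM in vehicle livers with overlap (SD, n = 3 each; 0.32 ± 0.18; limma, adjusted p = 0.297). At the other end, Mrpl3, whose bacterial counterpart lies near the site where peptide bonds form, averaged 3.87 ± 0.375 FPKM in 326E livers and 4.18 ± 0.294 FPKM in vehicle livers (SD, n = 3 each; -0.09 ± 0.10; limma, adjusted p = 0.599). Mrpl38 differed by -0.09 ± 0.15, Mrps14 by -0.08 ± 0.12, Mrpl33 by -0.07 ± 0.09, Mrpl23 by -0.03 ± 0.19 and Mrpl52 by -0.02 ± 0.11. None of these 6 differences exceeded its standard error, and each pair of groups overlapped.

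Both subunits had similar medians, 0.21 over 50 large-subunit genes (7 called) and 0.21 over 26 small-subunit genes (1 called). Of all tested genes, 4.96% were called higher in this comparison. The median was 0.22 over 48 genes with a bacterial counterpart (5 called) and 0.21 over 28 mitochondria-specific genes (3 called). The medians differed more between short and long genes. Over 21 genes with a deposited length of at most 1500 bases the median was 0.34 (5 called), and over 56 longer genes it was 0.18 (4 called). The median over all tested protein-coding genes was 0.08 for the 928 of at most 1500 bases and -0.03 for the 10887 longer ones. Of these, 73 of the 928 and 544 of the 10887 were called higher. As a description across genes, which are not independent replicates, the Spearman correlation of length with the difference was -0.51 over the 77 genes and -0.10 over all tested genes. It was -0.37 over the 77 genes after a length trend had been removed from each library. Then 8 members were called higher, beside 708 of all tested genes. The part of length in the result was not tested further.

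**Figure D3:**
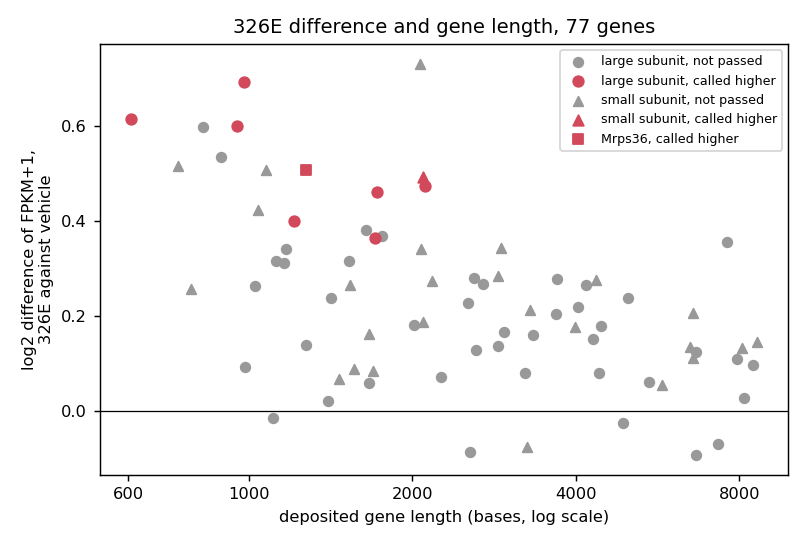
Difference between 326E and vehicle livers (log2 of FPKM+1) against deposited gene length in bases, on a log axis, for 77 genes; circles are large-subunit genes, triangles small-subunit genes and the square Mrps36, and red marks the 9 called genes. The shortest gene, Mrpl34 at 607 bases, is among the called genes, and the differences of genes over 1500 bases gather around their median of 0.18.

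The count of called members depended on individual libraries, and so did that of all tested genes, of which 681 were called higher with all libraries. With 326E replicate 1, 2 or 3 left out, 3, 0 and 1 members were called higher, beside 414, 307 and 320 of all tested genes. With vehicle replicate 1, 2 or 3 left out the counts were 3, 5 and 6, beside 450, 567 and 433. With chow replicate 1, 2 or 3 left out they were 4, 9 and 8, beside 552, 715 and 596. The median of the members stayed between 0.19 and 0.28. In these 9 fits Mrpl49 was called 8 times and Mrpl50 7 times, Mrpl14 and Mrps36 4 times, and the other called genes 1 to 3 times. With vehicle replicate 2 as the lone vehicle library, the median of the members was 0.23, against -0.01 for all tested genes.

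The comparison of vehicle on CDAA-HFD with vehicle on chow asked what the diet changed. Most mitochondrial ribosomal protein genes were lower on the diet: limma called 52 of 77 lower (67.5%, against 20.8% of all tested genes) and 0 higher (against 20.8% of all tested genes; 0 at an unadjusted p under 0.05, and 0 by voom). The fitted difference was negative for 71 genes and its median was -0.45, against -0.04 for all tested genes. Without adjustment 56 passed, all 56 lower, and in 58 of 77 every vehicle library lay below every chow library (75.3%, against 27.0% of all tested genes), while in 0 every one lay above (against 24.9%). The summed level was 672, 660 and 761 FPKM in the vehicle libraries, against 927, 1017 and 916 FPKM in the chow libraries, without overlap. The same vehicle libraries serve in this comparison and in that of 326E with vehicle, so these comparisons are not independent of each other.

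The falls spanned both subunits, with 22 of 26 small-subunit genes called lower (median -0.51) and 30 of 50 large-subunit genes (median -0.41). Of all tested genes, 20.8% were called lower. In the small subunit, Mrps27, a protein of the pentatricopeptide repeat family, had 5.96, 6.77 and 8.54 FPKM in vehicle livers, against 12.5, 11.7 and 14.1 FPKM in chow livers. The groups lay well apart, with a difference of -0.78 ± 0.14 (limma, adjusted p = 0.00192). Of the exon bases of Mrps27, 24.2% lie over another gene on the opposite strand. Mrps22, whose mutation in humans causes a mitochondrial disorder, had 3.22, 3.23 and 3.58 FPKM in vehicle livers, against 6.77, 5.34 and 6.27 FPKM in chow livers (-0.71 ± 0.10; limma, adjusted p = 0.000690). Its vehicle values lay close together and below the chow values. Mrps34 had 3.29, 4.84 and 8.75 FPKM in vehicle livers, against 9.20, 13.3 and 9.48 FPKM in chow livers (-0.88 ± 0.28; limma, adjusted p = 0.0332). Although this was the largest fall of the family, vehicle replicate 3 nearly reached the chow values. The call was lost without vehicle replicate 1 or 2 or without any 1 of the 3 chow libraries, with differences from -1.20 to -0.61. Mrps18c fell by 0.78 ± 0.22 (limma, adjusted p = 0.0204), and it missed the threshold without vehicle replicate 1 or without chow replicate 1 or 2. Of its exon bases, 23.2% are shared with Gm43511 on the same strand.

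In the large subunit, Mrpl49 had 9.76, 8.66 and 9.74 FPKM in vehicle livers, against 17.1, 16.7 and 16.3 FPKM in chow livers. The groups were tight and far apart, and the difference of -0.77 ± 0.08 had the smallest adjusted p of the family (limma, adjusted p = 0.000139). Mrpl44, a protein with a ribonuclease III-like fold, had 7.92, 10.1 and 8.37 FPKM in vehicle livers, against 14.9, 16.9 and 16.6 FPKM in chow livers. These groups were also far apart (-0.81 ± 0.11; limma, adjusted p = 0.000433). Mrpl39, a mitochondria-specific protein, averaged 8.49 ± 1.05 FPKM in vehicle livers and 14.0 ± 0.305 FPKM in chow livers (SD, n = 3 each; -0.67 ± 0.10; limma, adjusted p = 0.000703). Mrpl22, the exit-tunnel protein, had 4.8, 5.62 and 7.28 FPKM in vehicle livers, against 10.3, 14.3 and 9.0 FPKM in chow livers. All vehicle values lay below the chow values, a difference of -0.81 ± 0.18 (limma, adjusted p = 0.00650). Mrpl49, Mrpl44, Mrpl39, Mrps27 and Mrps22 were called lower in each of the 23 alternatives run.

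**Figure D4:**
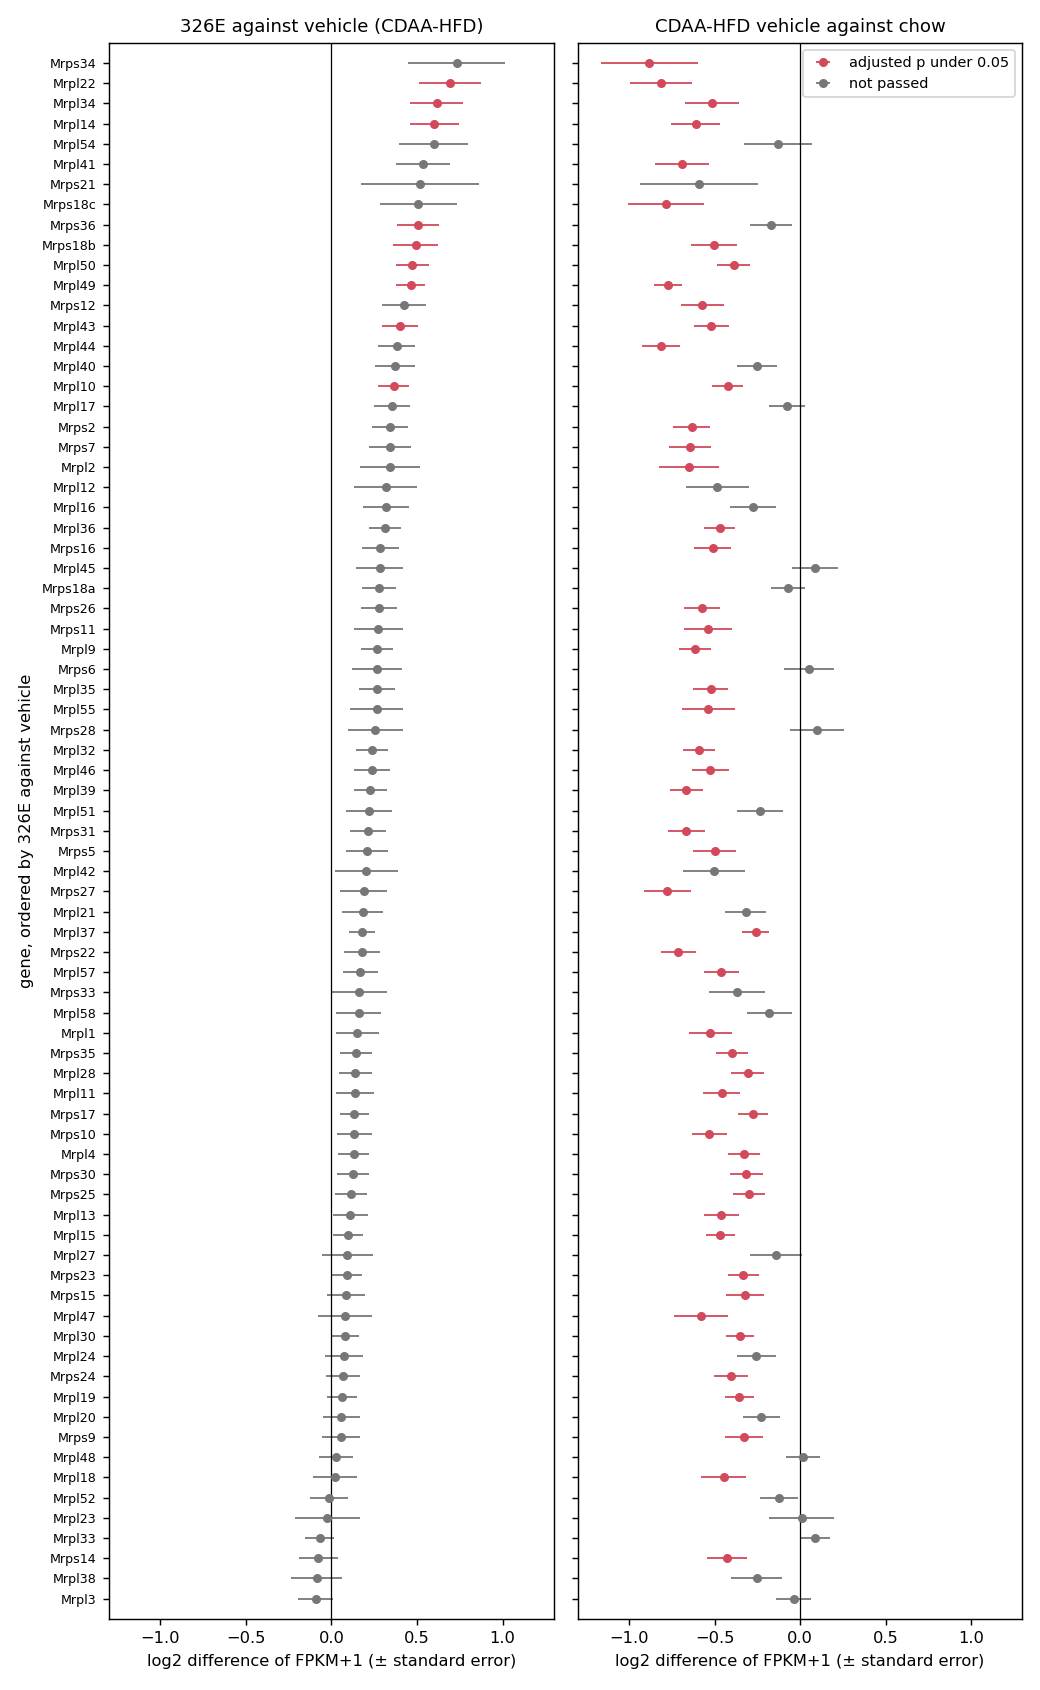
Fitted differences of log2(FPKM+1) for the 77 tested genes, ordered by the difference between 326E and vehicle livers; the left panel gives 326E against vehicle on CDAA-HFD and the right panel vehicle on CDAA-HFD against chow, with bars of 1 standard error and red for an adjusted p under 0.05. On the left 9 genes are red and 71 points lie right of 0; on the right 52 genes are red and 71 points lie left of 0, a direction that holds for 49 of 77 genes with values scaled to total assigned reads. Both panels use the vehicle libraries.

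Some members did not fall beyond their error. The 6 genes with a positive difference were Mrps28 (0.10 ± 0.16), Mrpl33 (0.09 ± 0.09), Mrpl45 (0.09 ± 0.14), Mrps6 (0.05 ± 0.15), Mrpl48 (0.02 ± 0.10) and Mrpl23 (0.01 ± 0.19), and the groups overlapped in each. Mrpl45, which helps to hold the ribosome at the inner membrane, averaged 11.6 ± 1.59 FPKM in vehicle livers and 10.8 ± 0.877 FPKM in chow livers (SD, n = 3 each). Mrpl3 differed by -0.04 ± 0.10 (limma, adjusted p = 0.797) and Mrps18a by -0.07 ± 0.10 (limma, adjusted p = 0.596). Mrpl12 differed by -0.48 ± 0.18 with overlap (limma, adjusted p = 0.0621), and vehicle replicate 3, at 21.5 FPKM, lay among the chow values. Mrps36, the dehydrogenase subunit, differed by -0.17 ± 0.12 (limma, adjusted p = 0.294), whereas Mrps30, which despite its symbol sits in the large subunit, fell by 0.31 ± 0.09 (limma, adjusted p = 0.0261). The call of Mrps30 held in 5 of the 9 fits that left out a library.

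The direction of the diet comparison depended on how libraries were scaled to each other. The deposited FPKM were already scaled between libraries. With values scaled to total assigned reads, the median of all tested genes moved to 0.25, and 5074 of 13737 were called higher and 961 lower. On that scale 4 members were called higher and 5 lower, with a median of -0.10. The median of the members minus that of all tested genes was -0.41 on the deposited scale and -0.35 on the scale of total reads. The share of reads on these genes, 0.161% to 0.170% in vehicle and 0.163% to 0.180% in chow libraries, overlapped. Leaving out a library gave 39 to 51 members called lower, beside 2173 to 2857 of all tested genes. With vehicle replicate 2 as the lone vehicle library the median of the members was -0.44, against -0.05 for all tested genes.

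Livers given 326E on CDAA-HFD were also compared with chow livers. Of the 77 genes, 17 were called lower (22.1%, against 12.5% of all tested genes) and 0 higher (against 14.4% of all tested genes; 4 at an unadjusted p under 0.05, and 0 by voom). The median difference was -0.20, against -0.02 for all tested genes, and 64 differences were negative (18 with values scaled to total assigned reads). The summed level was 901, 797 and 862 FPKM in the 326E libraries, against 927, 1017 and 916 FPKM in the chow libraries, and the groups lay apart by a narrow margin. In 32 genes every 326E library lay below every chow library (41.6%, against 22.6% of all tested genes), and in 4 genes, Mrpl17, Mrpl45, Mrps18a and Mrps36, every 326E library lay above (5.2%, against 22.4% of all tested genes).

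Mrps27 had 7.92, 7.35 and 9.24 FPKM in 326E livers, against 12.5, 11.7 and 14.1 FPKM in chow livers (-0.59 ± 0.14; limma, adjusted p = 0.0128). Mrps22 had 3.64, 3.76 and 4.35 FPKM in 326E livers, against 6.77, 5.34 and 6.27 FPKM in chow livers (-0.53 ± 0.10; limma, adjusted p = 0.00573). Mrps14, a small-subunit protein with a bacterial counterpart, averaged 7.38 ± 1.35 FPKM in 326E livers and 10.8 ± 0.437 FPKM in chow livers (SD, n = 3 each; -0.50 ± 0.12; limma, adjusted p = 0.0122). These genes thus had non-overlapping, lower values with 326E than on chow, and between 326E and vehicle livers they differed by 0.19 ± 0.14, 0.18 ± 0.10 and -0.08 ± 0.12, none of which passed. Mrpl49 was also lower in 326E than in chow livers (-0.31 ± 0.08; limma, adjusted p = 0.0236). Mrpl14, Mrps18b, Mrpl34, Mrpl50 and Mrpl22 had overlapping values in 326E and chow livers, with differences of -0.01 ± 0.14, -0.01 ± 0.13, 0.10 ± 0.16, 0.09 ± 0.10 and -0.12 ± 0.18. The largest positive differences were those of Mrpl54 (0.47 ± 0.20; limma, adjusted p = 0.116), Mrpl45 (0.37 ± 0.14; limma, adjusted p = 0.0770) and Mrps28 (0.35 ± 0.16; limma, adjusted p = 0.132). The direction depended on the scaling. With values scaled to total assigned reads 11 members were called higher and 0 lower, beside 3953 higher and 594 lower of 13737 tested genes. The median of the members turned to 0.10 beside 0.24 for all tested genes, a difference of -0.14 against -0.17 on the deposited scale. The count of lower members was 7, 4 and 12 without 326E replicate 1, 2 or 3, beside 1087, 1025 and 1537 of all tested genes. Without chow replicate 1, 2 or 3 it was 9, 8 and 9, beside 1187, 1384 and 1259.

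Other genes of mitochondrial gene expression were read from lists. Of 5 ribosomal proteins of mitochondria with other kinds of symbol, 0 were called between 326E and vehicle livers (median 0.08). Of all tested genes, 4.96% were called higher and 6.5% lower in that comparison. In vehicle livers 3 of the 5 were called lower than in chow livers (60%, against 20.8% of all tested genes), with a median of -0.38. Gadd45gip1, a large-subunit protein, had 5.36, 4.17 and 4.31 FPKM in 326E, 2.65, 3.29 and 3.91 FPKM in vehicle and 7.33, 7.77 and 5.36 FPKM in chow livers. Its difference between 326E and vehicle livers, 0.39 ± 0.16, did not pass (limma, adjusted p = 0.139), although the groups did not overlap. Of 24 assembly and ribosomal RNA modification genes, 1 was called higher with 326E (4.17%, against 4.96% of all tested genes) and 9 lower on the diet (37.5%, against 20.8%). Mterf4, which brings an RNA methyltransferase to the large subunit, was the called one, higher in 326E than in vehicle livers by 0.47 ± 0.09 (limma, adjusted p = 0.0132).

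Of 14 tested translation factors, 4 were called higher with 326E (28.6%, against 4.96% of all tested genes) and 10 lower on the diet (71.4%, against 20.8%). Taco1, an activator of the translation of the mitochondrial messenger RNA for cytochrome oxidase subunit I, had 10.9, 10.2 and 10.8 FPKM in 326E, 5.04, 6.69 and 7.39 FPKM in vehicle and 13.7, 12.7 and 14.1 FPKM in chow livers. The 3 groups did not overlap, and the difference between 326E and vehicle livers was 0.67 ± 0.12 (limma, adjusted p = 0.0108). The other called factors were Mtif3, an initiation factor (0.45 ± 0.11; limma, adjusted p = 0.0294), Gfm1, the elongation factor that moves the ribosome along (0.40 ± 0.11; limma, adjusted p = 0.0463), and Gfm2, which takes part in ribosome recycling (0.42 ± 0.11; limma, adjusted p = 0.0406). Of 20 genes that charge mitochondrial transfer RNAs, 2 were called higher with 326E (10%, against 4.96% of all tested genes), Gatb (0.57 ± 0.11; limma, adjusted p = 0.0166) and Iars2 (0.34 ± 0.08; limma, adjusted p = 0.0266), and 10 were called lower on the diet (50%, against 20.8%). Of 14 genes for replication and transcription of mitochondrial DNA, Twnk, Tefm and Mterf2 were called higher with 326E (21.4%, against 4.96%), and 9 were called lower on the diet (64.3%, against 20.8%).

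**Figure D5:**
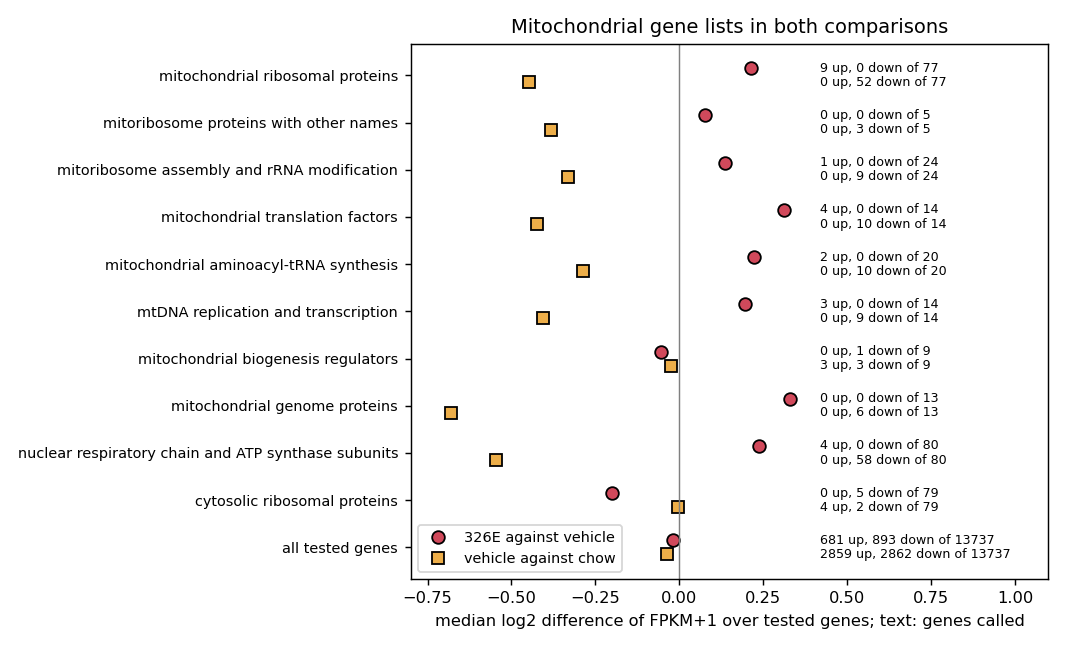
Median difference of log2(FPKM+1) over the tested genes of each list, for 326E against vehicle (circles) and vehicle against chow (squares), which share the vehicle libraries; the text at the right gives how many genes were called up and down, in the same order. The mitochondrial ribosomal proteins lie at 0.21 and -0.45, the cytosolic ribosomal proteins at -0.20 and -0.005, and all tested genes at -0.02 and -0.04.

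The proteins that the mitochondrial ribosome makes, and their nuclear-encoded partners, were read in the same way. Of the 13 protein genes of mitochondrial DNA, 0 were called between 326E and vehicle livers by limma (median 0.33). In vehicle livers 6 were called lower than in chow livers (46.2%, against 20.8% of all tested genes), with a median of -0.68. Library preparation enriched for poly(A) tails, on which the yield of mitochondrial transcripts depends, and mt-Atp6 ran from 357 to 749 FPKM in 326E, from 196 to 303 FPKM in vehicle and from 292 to 1206 FPKM in chow livers. Of 80 tested nuclear genes for respiratory chain and ATP synthase subunits, 4 were called higher with 326E (5.0%, against 4.96% of all tested genes; median 0.24) and 58 lower on the diet (72.5%, against 20.8%; median -0.55). The share with 326E is thus that of all tested genes, and 1 of the 4, Cox6b2, passed the filter on low values through the 326E libraries alone. Of 79 cytosolic ribosomal protein genes, 5 were called lower with 326E (6.33%, against 6.5% of all tested genes; median -0.20) and 0 higher. On the diet 4 were called higher (5.06%, against 20.8%) and 2 lower (2.53%, against 20.8%), with a median of -0.005. Processed copies of these genes are common in the genome and may share their reads. Their summed level overlapped between groups, at 6184 to 7697 FPKM in 326E, 7204 to 8511 FPKM in vehicle and 7259 to 8690 FPKM in chow livers.

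Regulators of mitochondrial gene expression gave a mixed picture. Of 9 tested, 0 were called higher with 326E (against 4.96% of all tested genes) and 1 lower (11.1%, against 6.5%). On the diet 3 were called higher and 3 lower (33.3% each, against 20.8% each of all tested genes). Only part of the list is described here, and genes other than Myc and Ppargc1a were chosen after their values were seen. Ppargc1a, the coactivator PGC-1α that raises transcription of mitochondrial genes, had 2.05, 2.23 and 2.69 FPKM in 326E livers, against 3.13, 4.75 and 4.86 FPKM in vehicle livers. It was lower with 326E without overlap (-0.64 ± 0.18; limma, adjusted p = 0.0490) and higher in vehicle than in chow livers with overlap (0.55 ± 0.18; limma, adjusted p = 0.0346), the opposite sign to the median of the ribosomal protein genes in both comparisons. Gabpa, a subunit of the ETS factor GABP, and Yy1 were called lower in vehicle than in chow livers, with differences of -0.68 ± 0.10 (limma, adjusted p = 0.000825) and -0.35 ± 0.09 (limma, adjusted p = 0.0108). Between 326E and vehicle livers they differed by 0.05 ± 0.10 and -0.05 ± 0.09. Nrf1, nuclear respiratory factor 1, differed by 0.02 ± 0.08 between 326E and vehicle livers and by -0.03 ± 0.08 between vehicle and chow livers. Myc had 5.81, 5.48 and 7.89 FPKM in 326E, 33.2, 7.04 and 49.9 FPKM in vehicle and 0.970, 2.10 and 1.71 FPKM in chow livers, so vehicle replicate 2 lay near the 326E values. The part of these regulators in the differences of the ribosomal protein genes was not tested.

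Markers of several cell types moved with the same groups. Of all tested genes, 4.96% were called higher and 6.5% lower with 326E, and 20.8% were called in each direction on the diet. Of 12 macrophage markers, 8 were called lower in 326E than in vehicle livers and 12 higher in vehicle than in chow livers, and their summed level was 646 to 1073 FPKM in 326E, 1145 to 1747 FPKM in vehicle and 198 to 235 FPKM in chow livers. Of 8 stellate cell and myofibroblast markers, 3 were called lower with 326E and 5 higher on the diet, with sums of 153 to 183 FPKM, 209 to 278 FPKM and 60.9 to 75.5 FPKM in 326E, vehicle and chow livers. Of 10 hepatocyte markers, 0 were called between 326E and vehicle livers and 5 were called lower on the diet, with sums of 27028 to 36395 FPKM in 326E, 29097 to 44311 FPKM in vehicle and 44065 to 50477 FPKM in chow livers. Each of these markers had reads in all 9 libraries. Of 5 tested neutrophil markers, 1 was called lower with 326E and 4 higher on the diet, with sums of 18.4 to 32.1 FPKM in 326E, 34.04 to 60.4 FPKM in vehicle and 5.03 to 24.9 FPKM in chow livers. Of 4 tested cholangiocyte markers, 0 were called between 326E and vehicle livers by limma and 3 were called higher on the diet, with sums of 79.8 to 137 FPKM, 112 to 325 FPKM and 31.5 to 50.04 FPKM in 326E, vehicle and chow livers. Of 5 Kupffer cell markers, 1 was called higher with 326E, and 2 were called higher and 1 lower on the diet. Of 6 endothelial markers, 0 were called with 326E, and 2 were called higher and 1 lower on the diet. On the diet neither list moved in a shared direction. With 326E the difference was positive for 4 of the 5 Kupffer cell markers (median 0.27) and 5 of the 6 endothelial markers (median 0.30). Of 2 tested T and NK cell markers, 0 were called with 326E and 1 was called higher on the diet. Of 3 tested B and plasma cell markers, 0 were called with 326E and 1 was called higher on the diet. The part of cell composition in the differences of the ribosomal protein genes was not tested.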

How the data were processed

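The authors deposited FPKM for each gene in 9 liver poly(A) libraries, with gene lengths; per the submitters' processing notes HISAT2 and featureCounts were used on mm10. Versions, annotation release and strand setting are not given in the sources used here. The titles of all libraries begin with MCD, whereas the labels' protocols name CDAA-HFD and chow, which are followed here. FPKM times length came out whole, within 0.01 read, for 100% of values, and the library sizes in the FPKM were 0.83 to 1.19 of the read totals. A gene entered the test if 3 or more of the 9 libraries had 0.5 FPKM or more. One limma model (version 3.58.1, R 4.3.3) of log2(FPKM+1) covered all groups, with trended variances and 6 residual degrees of freedom, and Benjamini-Hochberg adjustment ran over the 13737 genes of each comparison. limma was checked on simulated data with noise drawn separately for each gene, so the check does not cover shifts shared by many genes. Reads of replicates differed beyond counting error (chi-square per degree of freedom 20.5 to 79.5). The members, lists and rules for named genes were chosen with earlier results of these data known: any member may be named, and of other lists the genes that changed most or were called. Genes outside the family named beyond the most changed of each list were chosen after their values were seen. Gene models came from GENCODE vM21, and promoters from RefSeq on GRCm38.p6. Tables were prepared with Python 3.11.15 and pandas 2.3.3.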

Additional observations from a re-analysis of the deposited data

How the results depend on the processing

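The 23 alternatives changed the pseudocount (0.1 or 5), the filter (none, a mean of at least 1 FPKM, or only protein-coding genes), the scaling (total assigned reads or quantiles), the fit (no variance trend, libraries of 1 comparison alone, voom on read counts, a replicate block) or the values (a length trend taken out), or left out each of the 9 libraries. Taking out a GC trend, and keeping vehicle replicate 2 alone, were chosen after seeing the data. For 326E against vehicle, 3 members were called higher with no filter (beside 469 of 26796 tested genes) and 14 with quantile normalization (beside 976 of 13737). With the replicate block 2 were called higher (beside 463 of 13737). Lower members numbered 0 in every alternative. The median was 0.13 with a pseudocount of 5. Leaving out a library gave counts of 0 to 9, beside 307 to 715 of all tested genes, and medians of 0.19 to 0.28. For vehicle against chow, the median was -0.51 with a pseudocount of 0.1, -0.28 with 5, -0.10 with total-read scaling, -0.52 with voom and -0.37 with the length trend removed. Total-read scaling called 4 higher and 5 lower, and 30 were lower with only vehicle replicate 2 kept. Leaving out a library gave 39 to 51 lower genes, beside 2173 to 2857 of all tested genes, and medians of -0.46 to -0.39. For 326E against chow, the median was -0.14 with a pseudocount of 5, 0.10 with total-read scaling and -0.13 with quantile normalization. Higher members numbered 11 with total-read scaling (beside 3953 of all tested genes) and 3 with quantile normalization (beside 1654). They numbered 3 with the length trend removed (beside 2072) and 2 with the GC trend removed (beside 2096). Lower members numbered 0 with total-read scaling (beside 594) and 10 with the replicate block (beside 1399). Leaving out a library gave 4 to 18 lower and 0 to 1 higher genes, and medians of -0.25 to -0.17. Of all tested genes, 1025 to 1728 were then lower and 1368 to 1989 higher. Under total-read scaling the sign of the difference turned for 22 of 77 genes in vehicle against chow, for 46 in 326E against chow and for 1 in 326E against vehicle. Among them, genes that were called on either scale were Mrpl28 (0.0753), Mrpl30 (0.0195), Mrps23 (0.0359), Mrps15 (0.0427), Mrpl4 (0.0360), Mrpl37 (0.0891) and Mrps17 (0.0627) in vehicle against chow, and for Mrps24 (0.0179), Mrpl10 (0.29), Mrpl30 (0.0697) and Mrpl49 (0.0321) in 326E against chow. The scaling itself raised the median of all tested genes to 0.25 and 0.24 in these comparisons. For the other settings the cause was not tested.

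The replicate block gave 2 higher members for 326E against vehicle, beside 463 of all tested genes. It gave 44 lower members for vehicle against chow, beside 2501 of all tested genes. Libraries of different groups with the same number share no stated origin. Their deviations from the group means correlated at -0.24 to 0.02, and 1 of 18 comparisons matched a library best with its own number. The lowest genes rested on about 100 reads per library, and some members share exon bases with other genes, which limits the precision of their values.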

Other observations

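Among the nuclear subunits of the respiratory chain, Cox6b2, the testis-type form of a cytochrome oxidase subunit, had the largest difference between 326E and vehicle livers. It had 1.48, 2.50 and 2.07 FPKM in 326E, 0, 0.178 and 0.0524 FPKM in vehicle and 0, 0.0697 and 0 FPKM in chow livers. The 326E libraries lay above all others, and the difference from vehicle was 1.48 ± 0.14 on the log2(FPKM+1) scale (limma, adjusted p = 0.00103). Cox6b2 met the filter on low values through the 326E libraries alone, so it had to differ in this direction and the p gives no support. Among the cytosolic ribosomal proteins, Rpl30 had the largest difference, with 15.6, 13.9 and 20.3 FPKM in 326E livers, against 30.0, 31.7 and 33.0 FPKM in vehicle livers. It was lower with 326E without overlap (-0.90 ± 0.19; limma, adjusted p = 0.0191).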
